A study of Mus musculus with 6 samples.

Results

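The Wnt ligands, their receptors and their nuclear effectors were followed in mouse eye ectoderm with and without Pax6. Genes were chosen by symbol: every Wnt, Frizzled (Fzd) and R-spondin (Rspo) gene with a number, and the co-receptors Lrp5 and Lrp6, beta-catenin (Ctnnb1), the TCF/LEF factors Tcf7, Tcf7l1, Tcf7l2 and Lef1, and Axin1, Axin2, Nkd1, Apcdd1, Sp5, Lgr5 and Znrf3. The array carried 47 such symbols, 1 of them the antisense RNA Fzd10os, and 1 gene of the list, Tcf7, had no probe with its name. A gene counted as expressed when 1 of its probes was detected, with a detection p-value under 0.01, on 3 or more of the 6 arrays. By that measure 29 of the 47 were expressed, of 9190 expressed genes in all.

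The arrays were Illumina bead arrays of laser-microdissected ectoderm at embryonic day 9.5. Pax6-/- ectoderm, labelled surface ectoderm (3 arrays), was set against wild-type ectoderm labelled lens placode (3 arrays). Both came from a mixed FVB and 129 background, and the labels name no other allele or agent. Per the labels, RNA of 3 embryos was pooled by genotype and then amplified in triplicate. Read that way, each genotype is 1 pool, the spread between its arrays is technical, and every p-value sets 1 pool against another and leaves out the spread between embryos. A lower signal could mean fewer cells of a kind or less RNA per cell, and these cannot be told apart here.

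Wnt proteins are secreted lipid-modified ligands that bind Frizzled receptors and, in the canonical branch, Lrp5 or Lrp6. Binding stabilises beta-catenin, which enters the nucleus and activates genes with TCF/LEF factors, among them the feedback inhibitors Axin2, Nkd1, Apcdd1 and Znrf3. Other branches act through Frizzled receptors without beta-catenin, on cell polarity and movement. In head ectoderm, active beta-catenin signalling is known to oppose lens formation.

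Each array detected 16242 to 17735 of the 45281 probes, and the log2 values of arrays of different genotypes correlated at 0.925 to 0.936, against 0.947 to 0.954 for arrays of the same genotype. Pax6 itself read 10.01, 10.14 and 10.23 on the Pax6-/- arrays, against 11.30, 11.06 and 10.93 on the wild-type arrays (log2 normalised intensity; change -0.97, SE 0.13, limma adjusted p = 0.00237). The labels do not give the deleted part of the gene, so its probes do not check the genotype. Of 7 tested lens placode markers 6 were called lower in Pax6-/- ectoderm (limma adjusted p under 0.05), beside 1.76% of all genes. Pax6 itself is 1 of these 6. Maf, also 1 of the 6, was detected on 0 Pax6-/- arrays and 3 wild-type arrays, so it entered the test through wild type alone. The 7, Pax6 included, had a summed linear intensity of 3260 to 3728 in Pax6-/- arrays and 10189 to 10792 in wild-type arrays. Foxe3 was not expressed by the filter. Of 8 tested ectoderm markers 2, Krt14 (change 2.80) and Trp63 (change 0.77), were called higher by the same threshold, and 0 were called lower. By sign 3 of the 8 lay above 0 and 5 below, with a median of -0.17. Their sums were 12275 to 12727 in Pax6-/- arrays and 13111 to 13719 in wild-type arrays. Across all genes 139 were higher and 162 lower in Pax6-/- ectoderm, so 46.2% of calls were higher. With arrays scaled to the median of all probes this share was 26.1%, and the median change of all genes moved from -0.01 to -0.13. Fitting the slide as a block gave 126 higher and 150 lower genes. The 4 arrays of slide 1, 2 of each genotype, gave 28 higher and 40 lower genes.

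Most of the pathway's expressed genes did not pass the test. Of the 29 members 1, the receptor Fzd6, was higher in Pax6-/- ectoderm (background 1.51% of all genes) and 1, the ligand Wnt7a, was lower (background 1.76%). Wnt7a entered the test through its wild-type arrays alone. Both had an adjusted p of 0.0437 by limma over all genes, and neither call held when any 1 of the 6 arrays was left out. Changes below are differences of log2 intensity, Pax6-/- minus wild type, each with limma's moderated standard error (SE).

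As a set the members lay above 0 more often than below, with 19 of 29 above 0 and a median change of 0.29. For all 9190 genes 48.6% lay above 0, with a median of -0.01. Among the 22 members detected on all 6 arrays 16 lay above 0, with a median of 0.34, beside 49.0% and -0.01 for the 7352 genes detected as widely. Under scaling to the median of all probes 18 of 29 lay above 0, with a median of 0.17. At an unadjusted p under 0.05 there were 4 higher members (background 8.54%) and 2 lower ones (background 8.39%). The genotypes did not overlap for 9 members (background 22.8%), of which Wnt7a and Rspo2 were not detected on any Pax6-/- array and passed the filter through wild type. Among genes detected on at least 1 array of each genotype it was 7 of 27 members, or 25.9%, beside 21.6% of 9042 genes. The 9 were Fzd6, Fzd7, Lef1, Wnt2, Wnt6 and Wnt9b on the higher side and Wnt7a, Wnt7b and Rspo2 on the lower side.

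**Figure D1:**
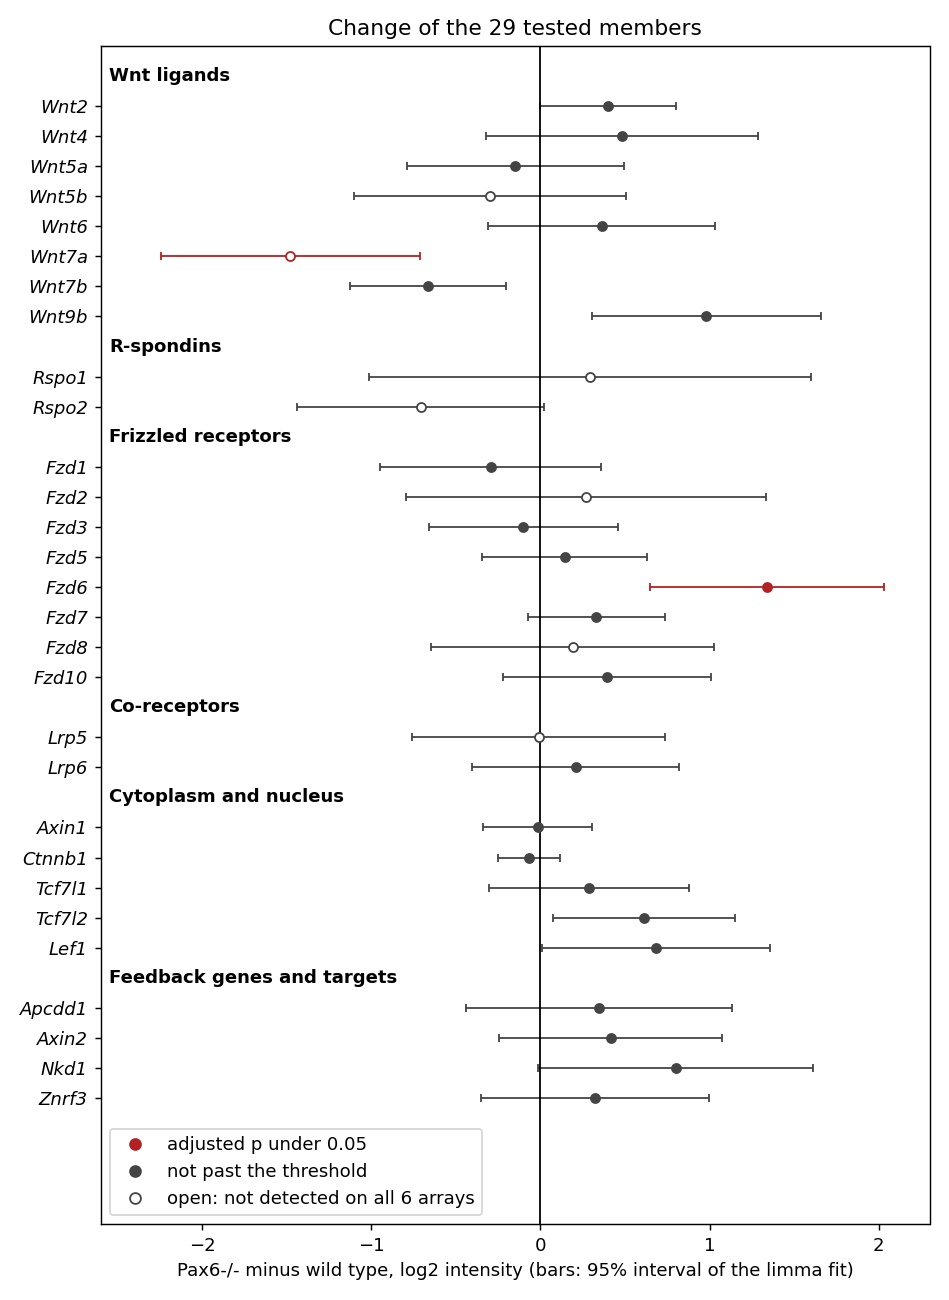
Change of each of the 29 tested members on the x axis (Pax6-/- minus wild type, log2 intensity), grouped by role, with bars for the 95% interval of the limma fit and open circles for members not detected on all 6 arrays. Only Wnt7a, on the left at -1.48, and Fzd6, on the right at 1.34, are drawn in red as past the threshold, and the 4 feedback genes and targets at the foot all lie to the right of 0.

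Ligands went both ways. Of 19 Wnt genes on the array 8 were expressed, 4 of them with changes above 0 and 4 below, and 1 passed the test. Wnt7a, a ligand known for dorsal patterning of limb ectoderm, read 5.03, 4.78 and 4.60 on the Pax6-/- arrays, against 6.08, 6.70 and 6.07 on the wild-type arrays. No Pax6-/- array reached the lowest wild-type array. The deposited signals of the probe were 139 to 145 in Pax6-/- ectoderm and 192 to 213 in wild type, and it was detected on 0 Pax6-/- arrays and 3 wild-type arrays. It therefore entered the test through its wild-type signal, like 103 of the 9190 genes. In Pax6-/- ectoderm it has only a bound, which by group means was 1.46-fold lower (fitted change -1.48, SE 0.35, limma adjusted p = 0.0437). That bound takes the wild-type mean against, on each Pax6-/- array, the higher of the probe's own value and the lowest signal of any detected probe. It has no error term and belongs to the main setting.

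The Wnt7a call was close to its threshold. It held in a fit that had the slide as a block (-1.48, adjusted p = 0.0452). Within slide 1 the change was -1.38 (adjusted p = 0.234), and the pair of arrays on slide 2 differed by -1.67, with no test. The adjusted p was 0.0787 without wild-type array 1, 0.161 without wild-type array 2, 0.0864 without wild-type array 3, 0.0880 without Pax6-/- array 1, 0.121 without Pax6-/- array 2 and 0.129 without Pax6-/- array 3. In each of these 6 fits the change stayed between -1.59 and -1.27. It was -0.53 without background correction, -0.86 with a background offset of 50 (adjusted p = 0.0544) and -1.99 in the authors' normalised values (adjusted p = 0.0538). The bases before the Wnt7a start are shown because it is the called ligand. They are the 250 bases upstream, from RefSeq (GRCm38.p6, minus strand, chr6:91411354-91411603), written 5′ to 3′, in which capitals would mark a TCF/LEF core on either strand (CTTTGAA or else CTTTGAT, or with a T as the sixth letter, CTTTGTA or else CTTTGTT), and there was no such match.
Wnt7a: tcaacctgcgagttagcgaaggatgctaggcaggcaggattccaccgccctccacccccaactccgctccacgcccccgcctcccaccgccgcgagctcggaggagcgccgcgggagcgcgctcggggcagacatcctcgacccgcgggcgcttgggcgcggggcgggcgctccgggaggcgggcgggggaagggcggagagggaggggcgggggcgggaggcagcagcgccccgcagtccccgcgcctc

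Wnt7b, the closest relative of Wnt7a, had the same sign. Its values were 10.02, 9.62 and 9.54 on the Pax6-/- arrays, against 10.88, 10.18 and 10.12 on the wild-type arrays. The highest Pax6-/- array lay just below the lowest wild-type array. The change of -0.67 (SE 0.21) did not pass over all genes (limma adjusted p = 0.127), and its 95% interval was -1.13 to -0.20. It was -0.92 on slide 1 and -0.16 between the arrays of slide 2, so its size was larger on slide 1.

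Wnt9b, a ligand of facial ectoderm known for its part in outgrowth of the face, had the opposite sign. It read 7.87, 8.29 and 8.47 on the Pax6-/- arrays, against 7.34, 6.71 and 7.62 on the wild-type arrays. The groups did not overlap, and the change of 0.98 (SE 0.31) missed the threshold (limma adjusted p = 0.125). A further Wnt9b probe stood at 0.94 (adjusted p = 0.228 in a fit over every kept probe).

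The remaining ligands differed less. Wnt2 read 8.89, 9.07 and 9.25 on the Pax6-/- arrays and 8.63, 8.72 and 8.67 on the wild-type arrays, a change of 0.40 (SE 0.18, limma adjusted p = 0.299). Wnt6, a ligand of surface ectoderm, read 6.46, 6.37 and 6.48 on the Pax6-/- arrays and 6.18, 6.02 and 6.02 on the wild-type arrays, a change of 0.36 (SE 0.31). In both genes every Pax6-/- array exceeded every wild-type array, though by little, and a further Wnt6 probe stood at 0.73. Wnt4, known for kidney tubule formation, had 5.98, 6.45 and 6.85 in Pax6-/- ectoderm and 6.38, 5.74 and 5.71 in wild type (change 0.48, SE 0.37). Wnt5a, which acts mainly through branches without beta-catenin, had 8.43, 9.29 and 8.81 in Pax6-/- ectoderm and 9.56, 8.50 and 8.91 in wild type (change -0.15, SE 0.29). Its relative Wnt5b had 5.46, 6.60 and 6.04 in Pax6-/- ectoderm and 6.36, 6.39 and 6.24 in wild type (change -0.30, SE 0.36). The genotypes overlapped for these last 3 ligands, and their intervals reached from -1.10 to 1.29.

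No other Wnt gene passed the filter. Wnt1, Wnt2b, Wnt3a, Wnt8a, Wnt8b, Wnt9a, Wnt10a, Wnt10b, Wnt11 and Wnt16 were not detected on any array by any of their 1 to 3 probes, and Wnt3 was detected on 1 Pax6-/- array only. A probe below detection does not show that a gene was silent.

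**Figure D2:**
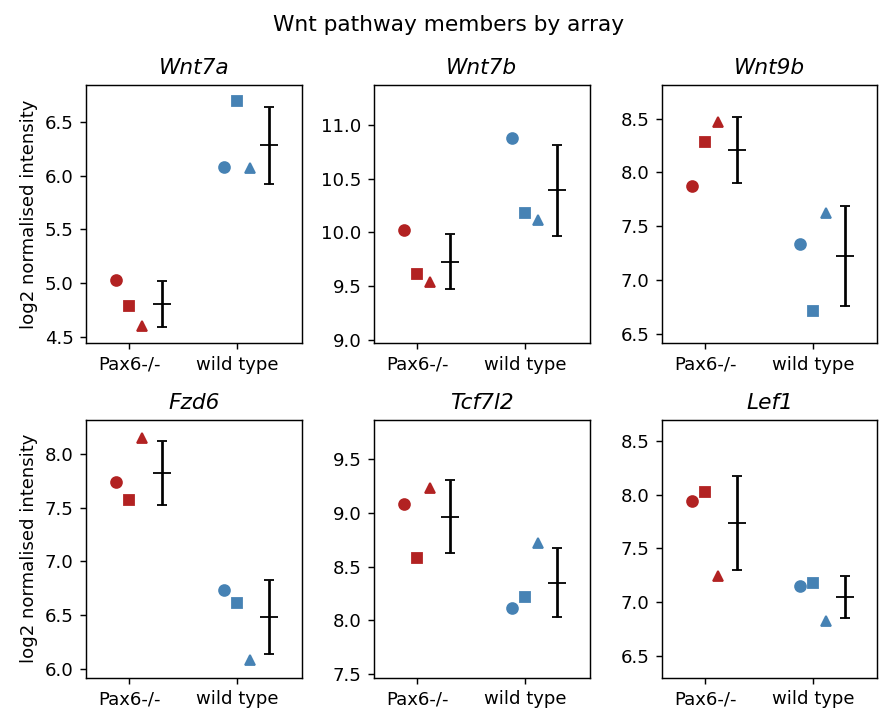
Log2 normalised intensity (y axis) of the 6 members with an unadjusted p under 0.05, with Pax6-/- arrays in red left of wild-type arrays in blue, circles, squares and triangles for replicates 1, 2 and 3, and the mean ± SD (n = 3) beside each group. The genotypes are separate for Wnt7a, Wnt7b, Wnt9b, Fzd6 and Lef1 and overlap for Tcf7l2, where wild-type array 3 at 8.72 lies above Pax6-/- array 2 at 8.58.

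R-spondins, secreted proteins that keep Frizzled receptors on the cell surface by neutralising the ligase Znrf3, were dim. Rspo2 read 5.56, 5.28 and 5.02 on the Pax6-/- arrays and 5.83, 6.05 and 6.10 on the wild-type arrays, and was detected on 0 Pax6-/- arrays and 3 wild-type arrays. The groups did not overlap, but the gene entered the test through its wild-type arrays alone and did not pass (limma adjusted p = 0.312). Its fitted change was -0.71 (SE 0.33), and the interval of the limma fit, -1.44 to 0.02, included no change. By group means its bound was 1.20-fold lower in Pax6-/- ectoderm, a value with no error term. Rspo1 read 6.21, 5.02 and 6.80 on the Pax6-/- arrays and 5.32, 4.84 and 7.00 on the wild-type arrays, with a spread wider than its change of 0.29 (SE 0.59). Rspo3 and Rspo4 were not detected on any array.

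Among receptors Fzd6 was the one that rose. Fzd6, a Frizzled known for planar cell polarity in skin and hair, read 7.73, 7.57 and 8.15 on the Pax6-/- arrays, against 6.73, 6.61 and 6.09 on the wild-type arrays. Every Pax6-/- array lay above every wild-type array. Its deposited signals were 306 to 418 in Pax6-/- ectoderm and 192 to 240 in wild type, and it was detected on all 6 arrays. The fitted change of 1.34 (SE 0.31, limma adjusted p = 0.0437) is a 2.53-fold higher intensity, with a 95% interval of 0.65 to 2.03 on the log2 scale.

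The Fzd6 call was also close to its threshold, and its 2 kept probes differed. A second Fzd6 probe, also detected on all 6 arrays, read 7.60, 6.39 and 7.50 on the Pax6-/- arrays and 6.50, 6.91 and 6.79 on the wild-type arrays, a change of 0.43 (adjusted p = 0.639 in the fit over every kept probe). With both probes averaged the change was 0.89 (adjusted p = 0.134). The call was lost in a fit that had the slide as a block (1.34, adjusted p = 0.0634). Slide 1 gave 1.45 (adjusted p = 0.194), and the pair of arrays on slide 2 differed by 1.12, with no test. The adjusted p was 0.0643 without wild-type array 1, 0.0877 without wild-type array 2, 0.131 without wild-type array 3, 0.110 without Pax6-/- array 1, 0.0832 without Pax6-/- array 2 and 0.150 without Pax6-/- array 3. The change in these 6 fits was 1.14 to 1.47. It was 0.71 without background correction (adjusted p = 0.0401), and 1.24 with scaling to the median of all probes (adjusted p = 0.0590).

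**Figure D3:**
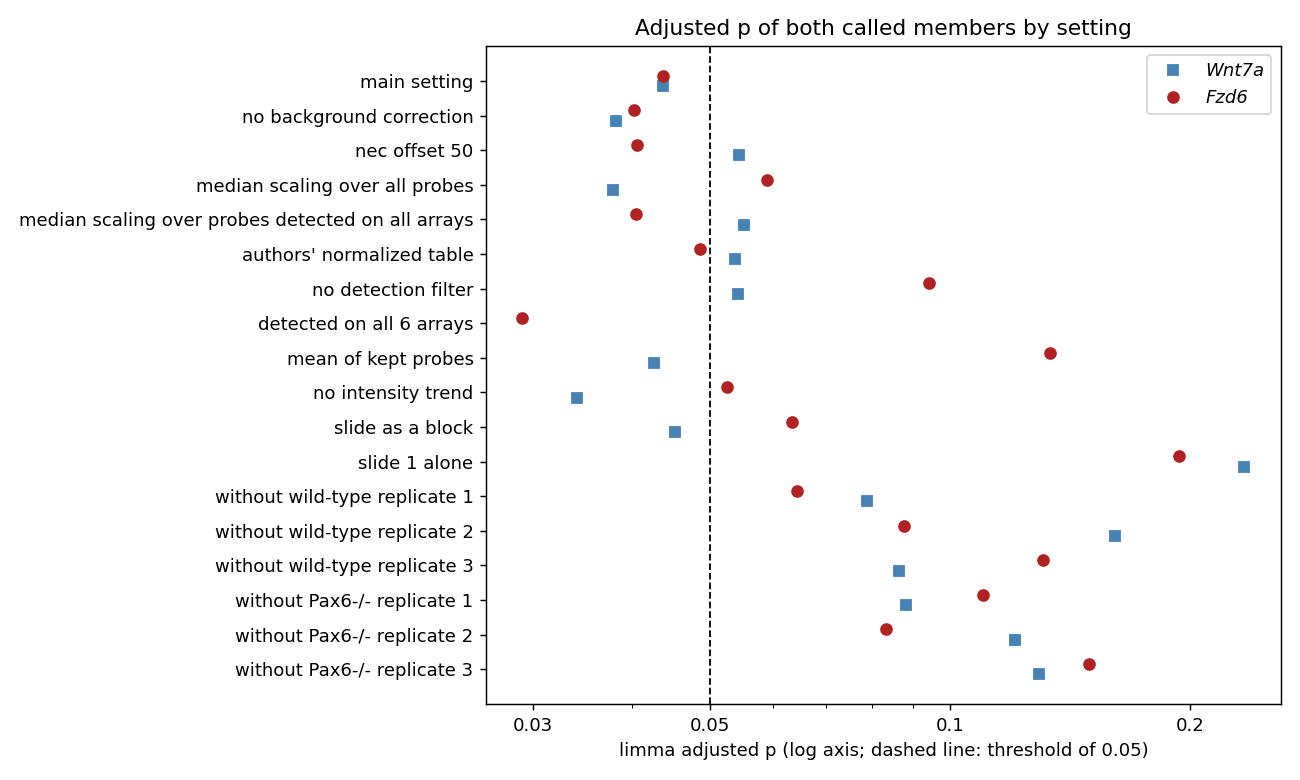
Limma adjusted p of Wnt7a (blue squares) and Fzd6 (red circles) on a log x axis under the main setting and 17 others, with the threshold of 0.05 as a dashed line. Both lie at 0.0437 in the main setting, and both lie to the right of the threshold for slide 1 alone, with no detection filter and in each of the 6 fits without 1 array. Wnt7a has no point where detection on all 6 arrays was required.

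Of the other Frizzled genes 7 were tested and 0 passed. Fzd7 read 9.06, 9.29 and 9.61 on the Pax6-/- arrays and 9.02, 9.00 and 8.95 on the wild-type arrays, a change of 0.33 (SE 0.18, limma adjusted p = 0.399). The groups were separate, by 0.04 between the nearest arrays. Fzd10 read 7.82, 8.25 and 7.67 in Pax6-/- ectoderm and 7.86, 7.34 and 7.36 in wild type (change 0.40, SE 0.28), while a further probe stood at 0.04. Fzd5, required in eye development, read 9.44, 9.18 and 8.81 in Pax6-/- ectoderm and 8.96, 8.72 and 9.33 in wild type (change 0.14, SE 0.22, or -0.0195 with scaling to the median of all probes). Fzd3, which acts with Fzd6 in neural tube closure, read 8.40, 8.35 and 8.31 in Pax6-/- ectoderm and 8.98, 8.17 and 8.21 in wild type. Its change was -0.10 (SE 0.25), while another probe, with signal on all arrays, gave 0.71 (adjusted p = 0.226). Fzd1 stood at -0.29 (SE 0.30), Fzd2 at 0.27 (SE 0.48) and Fzd8 at 0.19 (SE 0.38). The Fzd2 value rests on a wide spread in Pax6-/- ectoderm, with 7.31, 7.23 and 5.43 against 6.09, 6.40 and 6.67 in wild type. Fzd4 and Fzd9 were not detected, and neither was Fzd10os.

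Fzd7 shows what a TCF/LEF match looks like in this group. Upstream windows of 250 bases were held for 17 of the 29 tested members, of which 4 (Fzd7, Lef1, Tcf7l2 and Wnt5b) had a match in at least 1 window. Over windows, 16.7% of 24 had one, beside 14.8% of all 32851 windows in the table. The Fzd7 window (RefSeq, GRCm38.p6, plus strand, chr1:59481897-59482146, 5′ to 3′) is printed because it holds a match, in capitals, which is CTTTGTT read on the other strand.
Fzd7: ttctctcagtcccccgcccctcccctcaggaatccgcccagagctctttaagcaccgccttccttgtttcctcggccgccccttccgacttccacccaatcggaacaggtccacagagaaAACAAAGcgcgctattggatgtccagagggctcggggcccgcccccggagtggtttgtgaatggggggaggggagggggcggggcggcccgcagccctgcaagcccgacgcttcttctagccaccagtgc

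By their brightest probe in the main setting the co-receptors stayed within the spread of their arrays. Lrp6, the main co-receptor of the canonical branch in embryos, read 8.19, 7.48 and 8.21 on the Pax6-/- arrays and 7.66, 7.96 and 7.64 on the wild-type arrays, a change of 0.21 (95% interval -0.40 to 0.82). Lrp5 read 5.69, 5.82 and 6.01 in Pax6-/- ectoderm and 6.16, 5.95 and 5.45 in wild type, a change of -0.01 (95% interval -0.76 to 0.74). Another Lrp5 probe, about as bright over the 6 arrays, stood at -0.90 (adjusted p = 0.441 in the same fit over probes). It was detected on 1 Pax6-/- array and 2 wild-type arrays. The brightest probe was picked anew in each setting, so the values of other settings can come from this other Lrp5 probe. The Lrp5 change was -0.36 without background correction and -0.59 with a background offset of 50. With scaling to the median of all probes it was -0.92, and to that of probes detected on all arrays -0.80. Lrp5 passed in 0 settings.

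In the cytoplasm and nucleus, beta-catenin had the narrowest interval of the 29 members and the 3 TCF/LEF factors had changes above 0 by their brightest probe. Ctnnb1 read 13.06, 13.09 and 13.24 on the Pax6-/- arrays and 13.20, 13.05 and 13.34 on the wild-type arrays. Its change was -0.07 (SE 0.08), with a 95% interval of -0.25 to 0.11. Further Ctnnb1 probes stood at -0.06, -0.14 and 0.11. The transcript does not report beta-catenin protein, which the pathway controls by degradation. Axin1, the scaffold of the complex that degrades it, read 10.52, 10.57 and 10.16 in Pax6-/- ectoderm and 10.27, 10.42 and 10.61 in wild type (change -0.01, SE 0.15).

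Tcf7l2 read 9.09, 8.58 and 9.23 on the Pax6-/- arrays and 8.12, 8.22 and 8.72 on the wild-type arrays, a change of 0.61 (SE 0.24, limma adjusted p = 0.226). Other Tcf7l2 probes detected on all arrays stood at 0.79 and 0.94, and a dimmer one at -0.46. Lef1, a TCF/LEF factor that is itself a target of the pathway, read 7.95, 8.03 and 7.24 in Pax6-/- ectoderm and 7.15, 7.17 and 6.83 in wild type. Its groups were separate by 0.06, and the change of 0.69 (SE 0.31) did not pass (adjusted p = 0.286). Dimmer Lef1 probes stood at 1.21 and 0.33. Tcf7l1, which acts mostly as a repressor, read 8.27, 8.87 and 8.71 in Pax6-/- ectoderm and 8.78, 7.88 and 8.32 in wild type (change 0.29, SE 0.27). A dimmer Tcf7l1 probe stood at -0.20, and with both averaged the change was 0.04.

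Feedback genes of the canonical branch all had changes above 0, and 0 of the 4 tested passed by limma, also at an unadjusted p under 0.05. Axin2, the inhibitor most used as a readout of beta-catenin activity, read 7.56, 7.67 and 8.00 on the Pax6-/- arrays and 7.08, 7.81 and 7.09 on the wild-type arrays. Wild-type array 2 lay above 2 of the 3 Pax6-/- arrays, and the change was 0.42 (SE 0.30, adjusted p = 0.532). It was 0.75 on slide 1 and -0.25 between the arrays of slide 2. Nkd1, an inhibitor that binds Dishevelled, read 7.73, 6.59 and 7.07 in Pax6-/- ectoderm and 6.30, 6.68 and 6.01 in wild type (change 0.80, SE 0.37, adjusted p = 0.305). Znrf3, the ligase that removes Frizzled receptors, read 7.62, 7.45 and 7.00 in Pax6-/- ectoderm and 7.09, 7.28 and 6.73 in wild type (change 0.32, SE 0.31). Apcdd1, a membrane inhibitor, read 7.80, 7.58 and 7.85 in Pax6-/- ectoderm and 8.23, 7.05 and 6.90 in wild type (change 0.35, SE 0.36). In each of these 4 genes the genotypes overlapped, and the intervals reached from -0.44 to 1.61. Without 1 array the Apcdd1 change was 0.10 (wild-type array 3) to 0.76 (wild-type array 1), that of Axin2 0.29 to 0.65, that of Nkd1 0.50 to 1.07 and that of Znrf3 0.17 to 0.50. Sp5 was not detected on any array. Each of the 2 probes of Lgr5, an R-spondin receptor, was detected on 1 wild-type array and on 0 Pax6-/- arrays.

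The Axin2 window is printed as that of the usual readout gene (RefSeq, GRCm38.p6, plus strand, chr11:108920099-108920348, 5′ to 3′). The 4 letter strings were not in these 250 bases, which says nothing of other windows of the gene.
Axin2: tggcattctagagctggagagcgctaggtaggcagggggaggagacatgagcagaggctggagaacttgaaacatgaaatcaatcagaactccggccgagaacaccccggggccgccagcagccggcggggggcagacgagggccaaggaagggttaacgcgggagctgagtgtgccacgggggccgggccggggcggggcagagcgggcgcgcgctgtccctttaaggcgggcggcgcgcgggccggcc

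Across the 29 members 19 had the same sign on both slides and 10 had opposite signs. The standard errors of members ran from 0.08 to 0.59, with a median of 0.31, beside 0.28 for all genes. Of the members, 11 had more than 1 kept probe.

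The rest of the pathway was read from lists of secretion factors, other receptors, cytoplasmic regulators, nuclear cofactors, polarity genes, secreted antagonists and target genes. Outside the members 59 genes of these lists were tested. Of them 2 were higher and 3 lower in Pax6-/- ectoderm, or 8.47% beside 3.28% of all genes, and their median change was 0.07. The calls lay in the lists of antagonists, polarity genes and targets, and 0 of the tested secretion factors, other receptors, cytoplasmic regulators and nuclear cofactors passed.

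The list of secreted antagonists held 3 of the 5 calls among 11 tested genes. Sfrp2, a secreted protein with a Frizzled-like domain that binds Wnts, read 11.61, 11.58 and 11.73 on the Pax6-/- arrays and 12.71, 12.60 and 12.57 on the wild-type arrays (change -0.99, SE 0.08, limma adjusted p = 0.000139). Dkk3, listed as a member of the Dickkopf family, read 9.41, 9.09 and 9.16 in Pax6-/- ectoderm and 10.99, 10.69 and 10.79 in wild type (change -1.60, SE 0.14, limma adjusted p = 0.000208). Its action on Wnt signals was not tested here. Both genes were lower on every Pax6-/- array, and both passed in each of 18 other settings. Igfbp4, a binding protein of insulin-like growth factors that can also block Wnt receptors, read 9.98, 10.20 and 9.89 in Pax6-/- ectoderm and 9.04, 9.17 and 9.40 in wild type. It rose by 0.82 (SE 0.16, limma adjusted p = 0.0178). Fits in which it missed the threshold include those without wild-type array 1 or 2 or without Pax6-/- array 1 or 2 (adjusted p up to 0.0819), slide 1 alone (adjusted p = 0.173) and the fit with no intensity trend (adjusted p = 0.0801). Dkk1, which blocks Lrp6, stood at 0.91 (SE 0.31, adjusted p = 0.157) and Sfrp5 at 0.84 (SE 0.32, adjusted p = 0.210). Sfrp5 was detected on 3 Pax6-/- arrays and 1 wild-type array.

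Daam1, a formin that links Dishevelled to actin in the polarity branch, was lower in Pax6-/- ectoderm. It read 8.69, 8.49 and 8.44 on the Pax6-/- arrays and 9.53, 9.55 and 9.55 on the wild-type arrays, a change of -1.00 (SE 0.17, limma adjusted p = 0.00862). The call held without any 1 array, and missed the threshold with its probes averaged (-0.75, adjusted p = 0.0782) and on slide 1 alone (-1.07, adjusted p = 0.0980). The other 8 tested polarity genes did not pass, with Prickle1 at 1.06 (SE 0.45) and Celsr1 at -0.50 (SE 0.26). Prickle1 was detected on 3 Pax6-/- arrays and 1 wild-type array. Polarity genes had a median change of -0.35.

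Target genes went mostly above 0, with 12 of 14 tested genes above 0 and a median of 0.44, and 5 of the 14 are members described above. Sox9, a target in several tissues and a regulator of cartilage and neural crest, was the one that passed. It read 11.96, 12.19 and 12.26 on the Pax6-/- arrays and 11.48, 11.33 and 11.38 on the wild-type arrays (change 0.74, SE 0.10, limma adjusted p = 0.00223), and missed the threshold with no intensity trend (adjusted p = 0.0801). Sox9 is expressed in mesenchyme too. Of 8 tested mesenchyme markers 2 were called higher and 1 lower in Pax6-/- ectoderm, beside 3.28% of all genes called. By sign 6 of the 8 lay above 0 and 2 below, with a median of 0.49. The part of mesenchyme in the Sox9 change was not tested. Tbx3 stood at 0.93 (SE 0.29, adjusted p = 0.123).

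Of 14 tested nuclear cofactors 6 lay above 0, with Bcl9, which tethers coactivators to beta-catenin, at 0.89 (SE 0.25, limma adjusted p = 0.0919) and Bcl9l at 0.53 (SE 0.28). With its probes averaged Bcl9 stood at 0.20 (adjusted p = 0.739), and without Pax6-/- array 1 at 1.14 (adjusted p = 0.0464). Of 11 tested cytoplasmic regulators 8 lay above 0, with the degradation scaffold Apc at -0.97 (SE 0.35, adjusted p = 0.179) and Dvl3 at 0.93 (SE 0.45). Dvl3 was detected on 2 Pax6-/- arrays and 1 wild-type array. Of 4 other receptors 1 lay above 0, with the R-spondin receptor Lgr4 at -0.80 (SE 0.30) and Ror2, a receptor for Wnt5a, at -0.67 (SE 0.29). The secretion factors Porcn and Wls stood at -0.18 (SE 0.33) and 0.09 (SE 0.21, or -0.0602 with scaling to the median of all probes).

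**Figure D4:**
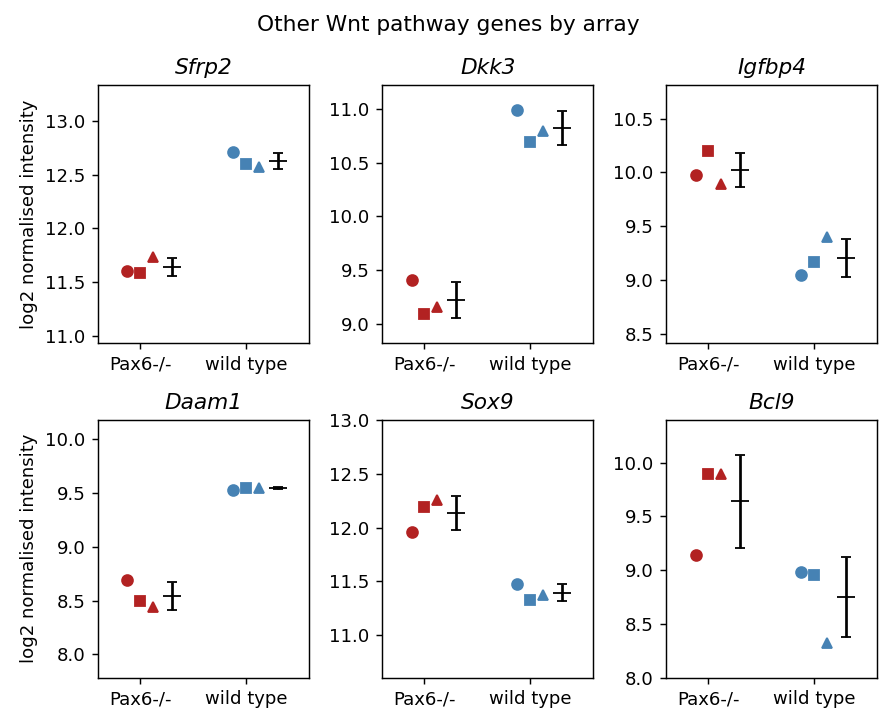
Log2 normalised intensity (y axis) of the 5 called genes of the other pathway lists and of Bcl9, with Pax6-/- arrays in red left of wild-type arrays in blue, circles, squares and triangles for replicates 1, 2 and 3, and the mean ± SD (n = 3) beside each group. Sfrp2, Dkk3 and Daam1 lie lower on all Pax6-/- arrays, Igfbp4 and Sox9 lie higher, and Bcl9, which did not pass, also lies higher.

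Among markers of neighbouring tissues the erythroid genes were higher in Pax6-/- ectoderm. Calls also fell in the mesenchyme list (2 higher and 1 lower of 8 tested) and the neural tube list (1 higher of 3 tested). Beside these, 3.28% of all genes were called. The mesenchyme and optic vesicle medians lay above 0. All 4 tested erythroid genes lay above 0 and 3 passed, with summed linear intensities of 4421 to 4900 in Pax6-/- arrays and 2141 to 2441 in wild-type arrays, while Alas2 was not expressed by the filter. Of 8 tested mesenchyme markers 6 lay above 0 and 2 below, with a median of 0.49. Alx4 (0.99) and Col3a1 (0.94) were called higher and Pdgfra (-1.23) lower. Their sums over all 8 were 3235 to 3651 in Pax6-/- arrays and 2869 to 3030 in wild-type arrays. All 4 tested optic vesicle markers lay above 0 with 0 called and a median of 0.74. Rax stood at 1.19 (limma adjusted p = 0.0561), Lhx2 at 1.18, Otx2 at 0.30 and Mitf at 0.0029. Lhx2 was detected on 3 Pax6-/- arrays and 0 wild-type arrays. The sums were 1133 to 1310 in Pax6-/- arrays and 904 to 1063 in wild-type arrays, and Six6 and Hes5 were not expressed. Of 3 tested neural tube genes Zic1 was higher (1.83, SE 0.28, limma adjusted p = 0.00458), while Elavl3 stood at -0.12 and Neurog2 at -0.50, with sums of 486 to 630 in Pax6-/- arrays and 247 to 342 in wild-type arrays, and Sox1, Pax3, Zic2 and Tubb3 were not expressed. All 5 endothelial and 4 macrophage markers were below the filter. The part of these markers in the changes of Wnt7a, Fzd6 and the other genes above was not tested.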

How the data were processed

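Per the file headers, the deposited table gives for every probe and array the mean intensity of its beads, linear and without normalisation, and a detection p-value. GenomeStudio is named in the submitters' processing notes, with no version or settings given in the sources used here. The authors' second deposited table holds normalised intensity values (how they were made is not given in the sources used here) and served as an alternative.

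Signals were corrected with limma 3.58.1 (nec, detection p-values, offset 16; R 4.3.3), quantile-normalised and log2-transformed. Probes detected at p under 0.01 on at least 3 of 6 arrays and named by 1 gene were kept, with the brightest probe per gene. Genotypes were compared by limma (eBayes with a trend on intensity, 4 residual degrees of freedom, two-sided, Benjamini-Hochberg over 9190 genes, threshold 0.05). The fit was run on simulated data with independent normal noise on each array. That run held neither the detection filter nor the pooling by genotype, so it says nothing of those.

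Of 45281 probes 34885 had 1 symbol, 18 several and 10378 none, and 34807 matched RefSeq genes of GRCm38.p6 for current names. Medians of 44 or 45 beads stood behind each probe. The number of arrays limits the precision. The members, gene lists and tests were chosen with earlier results of these data known. Every member is named, and from each other list the called genes and up to 2 with the largest change. Slides come from the array identifiers, and hold 4 and 2 arrays. Same-numbered arrays did not deviate together, with correlations of -0.026, -0.024 and -0.0019.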

Additional observations from a re-analysis of the deposited data

How the results depend on the processing

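Signal over background limits Wnt7a and Rspo2, which were not detected on any Pax6-/- array and have only a bound there. Over 18 tested alternatives the 29 members gave 466 comparisons with the same direction and side of the threshold, 25 in which the call of Wnt7a or Fzd6 was lost and 24 in which a member with no call changed sign. The cause of these shifts was not tested. The count of called members was 1 with an offset of 50, either median scaling, the authors' table, detection on all 6 arrays, every kept probe, no intensity trend or the slide as a block. It was 0 with no detection filter (19057 genes tested), on slide 1 alone (fewer arrays), with the replicate block and without any 1 array (range 0 to 0). With no detection filter limma gave 9 of 47 members at an unadjusted p under 0.05, beside 2073 of 19057 genes. On slide 1 alone it gave 4 of 29, beside 1197 of 9190 genes, and with the replicate block 6 of 29, beside 1481. Without 1 array it gave 5 to 6 of 29, beside 1332 to 1436 of 9190 genes. The members' median was 0.14 without background correction and 0.19 to 0.29 without 1 array.

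Over all genes, counts without 1 array were 59 to 107 higher and 84 to 119 lower. They were 89 and 107 with no detection filter, 72 and 104 with no intensity trend, and 28 and 40 on slide 1 alone, and 264 genes were lower with scaling to the median of all probes. With the replicate block, 81 genes were higher and 101 lower, and Wnt7a (adjusted p = 0.0910), Fzd6 (0.0959) and Igfbp4 (0.0517) missed the threshold; the same-numbered arrays share only a number. Other pathway genes called numbered 8 with every kept probe, 3 with no intensity trend or on slide 1 alone, and 4 to 5 without 1 array.

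Signs that turned were those of Fzd5 (-0.0195) and Wls (-0.0602) with scaling to the median of all probes, Lrp5 in the authors' table (0.0181), and Fzd3 with probes averaged (0.22). On slide 1 alone they were those of Fzd2 (-0.0504), Fzd5 (-0.15), Lrp5 (0.11), Rspo1 (-0.25) and Wnt5b (0.02). Without 1 array the ranges spanning 0 were those of Fzd3 (-0.24 to 0.16), Lrp5 (-0.21 to 0.14), Wnt5a (-0.39 to 0.14), Rspo1 (-0.15 to 0.93), Axin1 (-0.10 to 0.11), Ctnnb1 (-0.142 to 0.0052), Fzd8 (-0.0328 to 0.458), Fzd2 (-0.0581 to 0.883), Fzd5 (-0.0052 to 0.311) and Wls (-0.0149 to 0.228).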
